A study of Mus musculus with 6 samples.

Results

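The nuclear genes of respiratory complexes I to IV were examined in tumor-initiating cells (TICs) and in the remaining tumor cells of murine mammary carcinomas. A gene was a member when it was protein-coding and its mouse symbol started with Nduf, Uqcr, Cox4i, Cox5, Cox6, Cox7 or Cox8, or was Sdha, Sdhb, Sdhc or Sdhd. This rule found 76 of the 41388 genes in the count files, of which 21397 are protein-coding. The members were 36 subunits of complex I, 8 complex I assembly factors with symbols starting with Ndufaf, 4 subunits of complex II, 8 of complex III and 18 of complex IV. Ndufa4 and its paralog Ndufa4l2 were held apart as the NDUFA4 pair, because NDUFA4 carries a complex I name but is found with complex IV.

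The respiratory chain sits in the inner mitochondrial membrane and passes electrons from NADH and succinate to oxygen. Complex I (NADH dehydrogenase) and complex II (succinate dehydrogenase) feed electrons into ubiquinone, complex III (cytochrome bc1) hands them to cytochrome c, and complex IV (cytochrome c oxidase) reduces oxygen to water. Complexes I, III and IV pump protons, and ATP synthase uses the resulting gradient. A few subunits of complexes I, III and IV are encoded by mitochondrial DNA, whereas the genes described here are transcribed in the nucleus, and complex II is encoded in the nucleus alone. Tumor cells are known for using glycolysis even in the presence of oxygen, and many of them also depend on respiration.

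TICs and non-CD24+CD90+ tumor cells were each profiled by RNA-seq in 3 samples. All came from primary mammary tumors of female FVB/N-TgN(MMTVPyVT)634Mul/J mice (MMTV-PyMT), in which a promoter from mouse mammary tumor virus drives the polyoma middle T antigen mainly in mammary epithelium. TICs were positive for CD24 and CD90, the other group was negative for one of these markers or for both, and cells of both groups were sorted as CD45-negative and DAPI-negative. The series description calls the second group CD24-CD90- cells, so that its exact gate is described in more than one way. No treatment was given, the labels give no age, and the study took TICs from mice of 12 weeks. Each sample pooled 4 cell sorts, so a sample is a mean over mice, and differences between single mice could not be seen. In such bulk samples, fewer cells of a type and less RNA per cell cannot be told apart.

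The TIC libraries held 8114933 to 9100552 counts and the others 6781239 to 8450038, so that 3 counts correspond to 0.33 to 0.44 CPM, which are counts scaled to the same library total. Levels are given as TMM-normalised CPM, and levels of different genes are compared only as CPM per kb of the principal transcript. Of all genes, 12192 had more than 1 CPM in at least 3 samples and were tested, among them 69 members. The 7 others were Ndufs5, Ndufaf6, Cox6a2, Cox7a1, Cox7b2, Cox8b and Cox8c. The sorted groups differed in markers of other cells. Luminal epithelial markers were abundant in all samples, with a summed level of 6272 to 6672 CPM in the non-CD24+CD90+ samples and 4169 to 4875 CPM in TICs, and 0 of 10 passed the test (2 with an unadjusted p below 0.05). Of 10 fibroblast markers 7 were higher in TICs, and their summed level was 3570 to 3813 CPM against 8145 to 11774 CPM. Of 13 markers of pericytes and smooth muscle 1 was higher, Rgs5, and 6 had an unadjusted p below 0.05, all higher in TICs. Their sums were 624 to 849 CPM against 1110 to 1757 CPM. No endothelial marker of 10 passed, though 6 had an unadjusted p below 0.05, with sums of 221 to 238 CPM against 282 to 1016 CPM. Of 3 leukocyte markers tested 1 was higher in TICs, Lyz2 of myeloid cells, while Ptprc, which encodes CD45, had counts in a single non-CD24+CD90+ sample. Of 6 adipocyte markers 3 had no count in any sample, 2 were tested and 1 was higher, Fabp4, which is also made by capillary endothelium. Basal epithelial (7 tested), brown adipocyte (3) and striated muscle (2) lists had no call. The part of these cells in the values below was not tested.

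No member passed the test for a difference between the groups. With exactTest of edgeR and a Benjamini-Hochberg adjusted p below 0.1, 0 of 69 members were called, while 189 of the 12192 genes tested were called (1.55%), 166 of them higher and 23 lower in TICs. Without adjustment, 0 of 69 members had a p below 0.05, against 7.85% of all genes. The quasi-likelihood test of edgeR called 0 members (all genes, 0.410%), and DESeq2 called 0 of the 68 to which it gave an adjusted p (all genes, 2.58%). The smallest adjusted p of a member by exactTest was 0.815, for Uqcrfs1.

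The fold changes of the members were centred near 0. Their median log2 fold change of TICs over non-CD24+CD90+ tumor cells was -0.01, next to -0.01 for all genes tested, and 36 of 69 were below 0 (all genes, 50.3%). The quartiles of the members were -0.20 and 0.26, and those of all genes were -0.45 and 0.55. A p that misses the threshold leaves the size of a difference unknown, so the 95% intervals of the fold changes were examined. For 35 of 69 members the interval stayed within a 2-fold change in either direction (all genes, 14.0%). All 35 were among the 56 members with a mean of at least 20 CPM, and among all genes at that level the share was 25.3% of 6756. The quartiles at that level were -0.24 and 0.10 for members and -0.38 and 0.33 for all genes. Beyond this cut the genes were not matched to the members in level. None of the 13 members tested below 20 CPM had such an interval. For these, and for the more abundant members with wider intervals, the intervals do not limit a difference to less than 2-fold. Their widths come from dispersions drawn toward a value common to all genes, so they do not measure the spread of each gene alone.

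**Figure D1:**
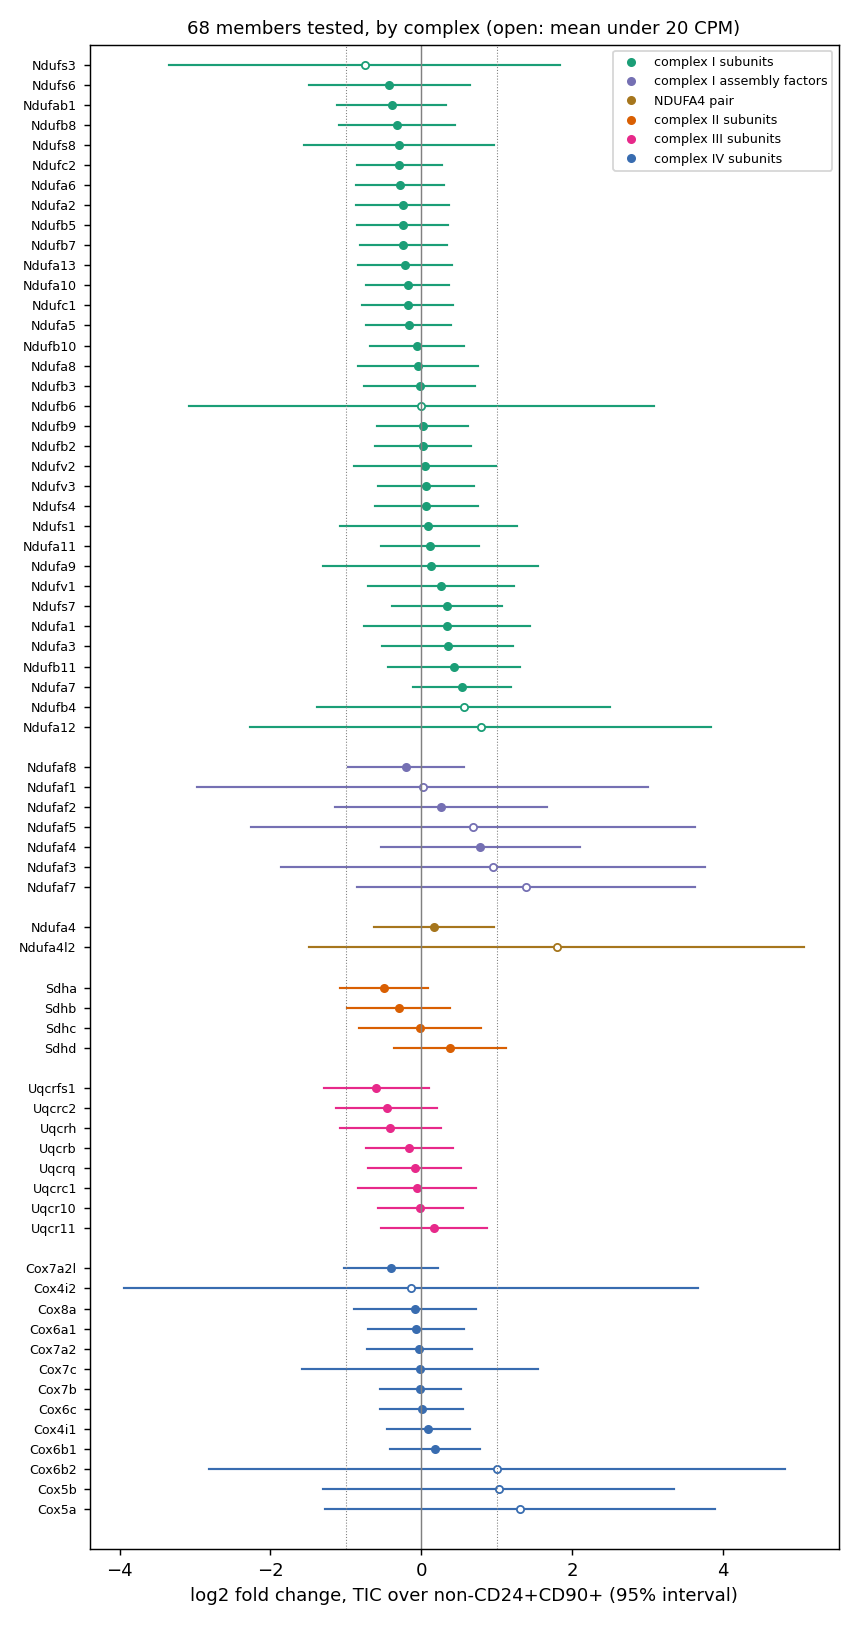
Log2 fold change of TICs over non-CD24+CD90+ tumor cells (x axis) for 68 of the 69 members tested, ordered within each complex (y axis), as points with 95% intervals from the negative binomial fit. Open points are members with a mean under 20 CPM, dotted lines mark a 2-fold change, and every interval drawn crosses 0.

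Summed over its subunits, no complex separated the groups. The summed level of complex I subunits was 4964, 4549 and 5056 CPM in the non-CD24+CD90+ samples and 5417, 4349 and 3840 CPM in TICs. Complex II summed to 597, 695 and 810 CPM against 706, 499 and 573 CPM, and complex III to 1465, 1142 and 1389 CPM against 1321, 1184 and 1003 CPM. The groups overlapped for all of these sums. Complex IV had the steadiest sum in the non-CD24+CD90+ tumor cells, 2979, 2893 and 2864 CPM, and 3366, 2676 and 2716 CPM in TICs, so that the means were 2912 ± 59.96 and 2919 ± 387 CPM (SD, n = 3). All members together reached 10076 ± 483 CPM in the non-CD24+CD90+ samples and 9523 ± 1374 CPM in TICs, a ratio of 0.945 and a difference smaller than the SD of the TIC samples. Median log2 fold changes of the members tested were -0.02 for complex I subunits, -0.16 for complex II, -0.12 for complex III and -0.01 for complex IV. With single samples left out, the median of complex I subunits lay between -0.18 (without non-CD24+CD90+ replicate 2) and 0.05 (without non-CD24+CD90+ replicate 1), and that of complex II between -0.31 (without TIC replicate 1) and 0.03 (without TIC replicate 2). That of complex III lay between -0.18 and -0.14, and that of complex IV between -0.04 (without TIC replicate 1) and 0.14 (without TIC replicate 3).

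**Figure D2:**
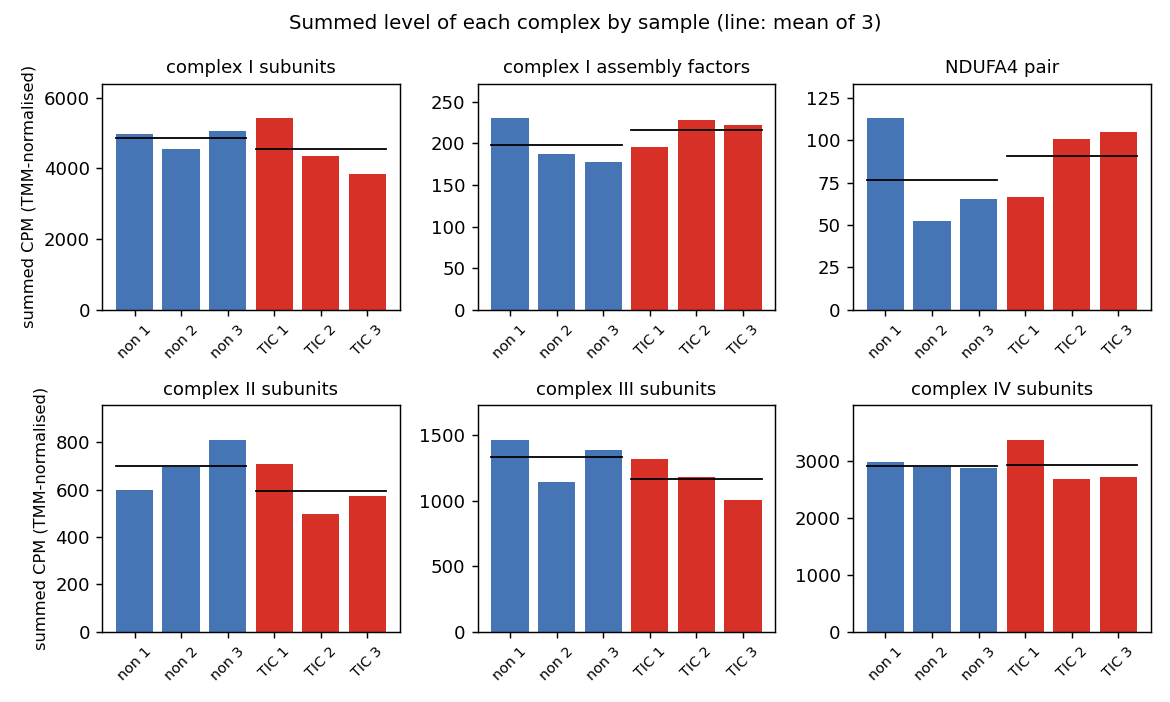
Summed TMM-normalised CPM (y axis, starting at 0) of the members of each complex in each of the 6 samples (x axis; blue, non-CD24+CD90+ tumor cells; red, TICs), with the mean of each group as a line. The groups overlap in every panel, and TIC replicate 1 is the highest sample for complexes I and IV.

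Complex I takes electrons from NADH through a flavin and a chain of iron-sulfur clusters held by its core subunits. Ndufv1, which binds the flavin and NADH, was at 39.7, 30.1 and 56.0 CPM in the non-CD24+CD90+ samples and at 72.3, 32.7 and 46.0 CPM in TICs, a log2 fold change of 0.27 (95% interval -0.70 to 1.24). Ndufs1, with several of the clusters, was at 50.2, 30.5 and 17.0 CPM against 44.1, 20.6 and 39.7 CPM. The groups overlapped for both, with wide spread within both groups. Ndufs7, which lies near the ubiquinone site, was at 79.4, 91.8 and 81.0 CPM against 120, 136 and 62.0 CPM, and the cluster protein Ndufv2 at 110, 38.2 and 73.7 CPM against 94.3, 99.7 and 35.5 CPM. The TICs lay on both sides of the other group in Ndufs7 and within its range in Ndufv2 but for its lowest sample.

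Ndufs8, which carries a pair of iron-sulfur clusters, had the widest range among TICs of the 56 members with at least 20 CPM. It was at 78.4, 85.8 and 80.5 CPM in the non-CD24+CD90+ samples, whose highest sample was 1.095 times the lowest, and at 152, 35.8 and 11.3 CPM in TICs, where this ratio was 13.5. TIC replicate 1 thus lay above, and replicates 2 and 3 below, every sample of the other group. The log2 fold change was -0.30 (95% interval -1.55 to 0.96). Without TIC replicate 1 it was -1.77 with an adjusted p of 0.093 by exactTest, past the threshold, without TIC replicate 2 it was 0.00, and without TIC replicate 3 it was 0.22. This was the only call of a member when single samples were left out. Ndufs8 shares no 50-base word with another gene.

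Of the accessory subunits of complex I, which surround the core and stabilise it, Ndufa7 came nearest to a difference toward higher levels. It was at 142, 137 and 121 CPM in the non-CD24+CD90+ samples and at 276, 160 and 146 CPM in TICs. All TICs lay above the other group, by little for replicates 2 and 3, and the log2 fold change was 0.54 (95% interval -0.11 to 1.19, adjusted p = 0.838 by exactTest). Ndufa10 was at 314, 291 and 310 CPM against 290, 286 and 230 CPM, and Ndufab1, the mitochondrial acyl carrier protein, at 89.2, 71.2 and 92.1 CPM against 69.9, 71.2 and 51.2 CPM. In both, every TIC lay below every other sample, with the nearest samples almost equal. Over all 69 members tested, 4 had all TICs above the other group (Ndufa7, Ndufaf3, Ndufa4l2 and Cox5b; all genes, 7.69%) and 3 had all TICs below it (Ndufa10, Ndufab1 and Uqcrfs1; all genes, 7.56%), shares not above those of all genes.

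Per kb, the level of complex I subunits ran from 565 CPM for Ndufa6 to 0.23 CPM for Ndufs5, with a median of 95.4 CPM. Ndufa13, a protein also known as GRIM-19, was at 390, 307 and 431 CPM against 434, 316 and 223 CPM. The lowest log2 fold change belonged to the core subunit Ndufs3, -0.75, at only 6.69, 4.75 and 14.4 CPM against 7.66, 4.76 and 2.89 CPM. It was -0.16 without non-CD24+CD90+ replicate 3, -0.45 without TIC replicate 3 and -1.15 without TIC replicate 1. The highest was that of Ndufa12, 0.79, at 3.20, 8.25 and 0.14 CPM against 5.25, 9.05 and 5.78 CPM. It was 0.23 without non-CD24+CD90+ replicate 3, 0.51 without TIC replicate 2 and 1.997 without non-CD24+CD90+ replicate 2. Both had intervals of several-fold in either direction, and both share sequence with a pseudogene, as described further on. In all, 17 subunits were above 0 and 18 below, and 19 of 35 had an interval within 2-fold.

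The assembly factors, which build complex I and are not part of the finished enzyme, were scarce but for Ndufaf8, at 147, 79.0 and 137 CPM against 57.8, 136 and 121 CPM. The other 7 had levels of 1.13 to 50.8 CPM per kb. Of 7 tested, 6 had a log2 fold change above 0, with a median of 0.68, and 0 passed the test. Ndufaf7, a methyltransferase, had the highest, 1.39 (95% interval -0.85 to 3.63), at 5.82, 11.3 and 1.71 CPM against 20.5, 3.48 and 25.6 CPM. Ndufaf4 followed among the more abundant factors at 13.7, 25.4 and 13.0 CPM against 22.9, 38.3 and 28.7 CPM, with overlapping groups. Ndufaf3 was higher in all TICs at 2.91, 4.18 and 2.14 CPM against 5.36, 4.53 and 8.02 CPM, a log2 fold change of 0.95 (95% interval -1.86 to 3.77). Ndufaf1 was listed at 0 in TIC replicate 2 while replicate 1 held 34.7 CPM and replicate 3 held 0.53 CPM, against 11.6, 18.2 and 4.99 CPM in the other group. Ndufaf6, not tested, had counts in 3 samples, at 5.31 and 0.998 CPM in non-CD24+CD90+ replicates 2 and 3 and 1.05 CPM in TIC replicate 3. The summed level of all 8 factors was 198 ± 28.2 CPM in the non-CD24+CD90+ samples and 216 ± 17.1 CPM in TICs (SD, n = 3), so that most of the median rested on members of few counts.

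Ndufa4 and Ndufa4l2 encode related small proteins, and Ndufa4l2 is known as a gene induced by hypoxia. Ndufa4 was at 111, 49.3 and 65.1 CPM in the non-CD24+CD90+ samples and at 62.4, 93.6 and 97.6 CPM in TICs, with a log2 fold change of 0.17. Ndufa4l2 was much lower, at 2.33, 3.17 and 0 CPM against 4.38, 7.20 and 7.62 CPM. All TICs lay above the other group, and the log2 fold change of 1.79 had a 95% interval from -1.49 to 5.08. The coding sequences of the pair were 64.2% identical and their transcripts shared no 50-base word. Of a list of 11 genes of the hypoxia response in the files, 10 were tested, 0 were called by exactTest and 2 had an unadjusted p below 0.05, with a median log2 fold change of 0.07. These 2 differed in sign, with log2 fold changes of 1.04 for Adm and -0.8 for Egln3.

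Complex II oxidises succinate to fumarate and is shared with the TCA cycle. Sdha, its flavin-bearing catalytic subunit, was at 334, 429 and 410 CPM in the non-CD24+CD90+ samples and at 359, 250 and 223 CPM in TICs. TIC replicates 2 and 3 lay below all samples of the other group and replicate 1 within it, and the log2 fold change was -0.49 (95% interval -1.08 to 0.09, adjusted p = 0.832 by exactTest). The iron-sulfur subunit Sdhb was at 100, 132 and 175 CPM against 146, 86.8 and 97.5 CPM. The membrane anchors differed in sign, with Sdhc at 79.3, 66.5 and 57.6 CPM against 73.3, 43.4 and 84.2 CPM, and Sdhd at 83.3, 67.2 and 168 CPM against 127, 119 and 167 CPM. Their log2 fold changes were -0.02 (-0.82 to 0.79) and 0.38 (-0.37 to 1.13), both with overlapping groups.

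Complex III passes electrons from ubiquinol to cytochrome c, and 7 of its 8 members had log2 fold changes below 0 (all genes, 50.3%), none of which passed the test. Uqcrfs1, the Rieske iron-sulfur protein, was at 147, 92.5 and 99.4 CPM in the non-CD24+CD90+ samples and at 90.6, 68.6 and 65.0 CPM in TICs. All TICs lay below the other group, with TIC replicate 1 close to replicate 2 of that group, and the log2 fold change was -0.60 (95% interval -1.29 to 0.10). The core proteins, which hold the complex together on the matrix side, were Uqcrc2 at 173, 141 and 155 CPM against 154, 115 and 72.3 CPM and Uqcrc1 at 65.4, 70.0 and 55.7 CPM against 62.1, 49.8 and 72.0 CPM. Uqcr10, a small subunit with the highest level per kb of complex III, was at 341, 253 and 271 CPM against 319, 286 and 251 CPM, a log2 fold change of -0.01 (95% interval -0.58 to 0.55). The one member above 0 was Uqcr11, at 99.3, 81.2 and 161 CPM against 151, 136 and 95.5 CPM, and its groups overlapped. Cyc1 and Cycs, which encode cytochromes c1 and c and lie outside the rule, did not pass the test either. Their log2 fold changes differed in sign, 0.31 for Cyc1 and -0.19 for Cycs.

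**Figure D3:**
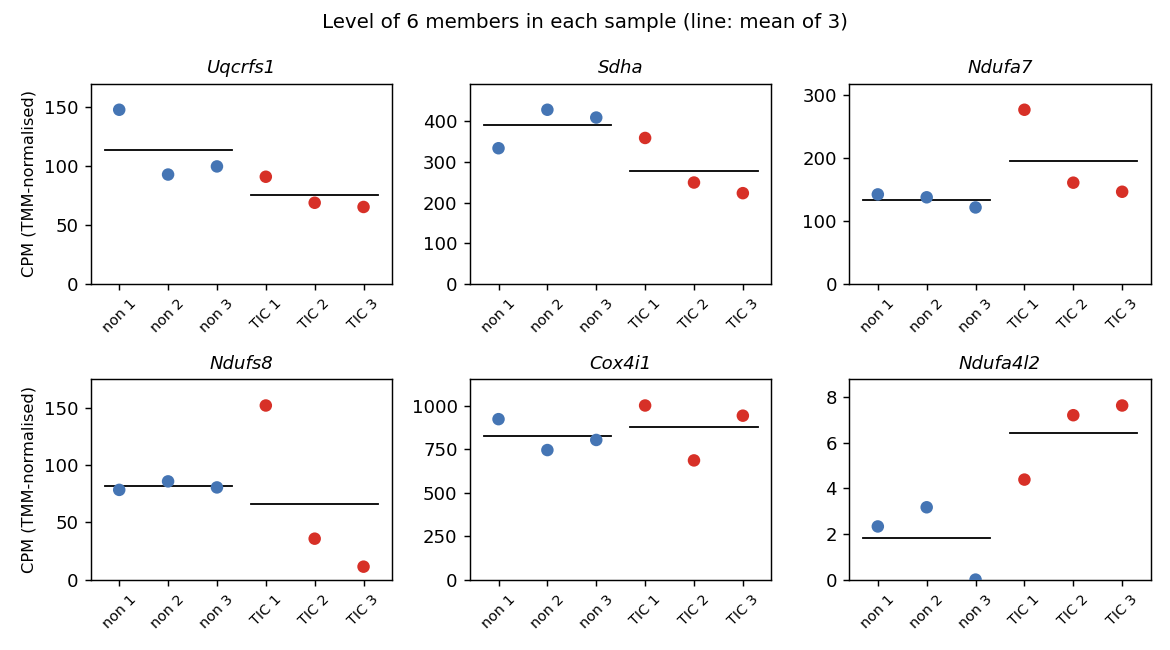
TMM-normalised CPM (y axis, starting at 0) of Uqcrfs1, Sdha, Ndufa7, Ndufs8, Cox4i1 and Ndufa4l2 in each sample (x axis; blue, non-CD24+CD90+ tumor cells; red, TICs), with the mean of each group as a line. Uqcrfs1 is lower and Ndufa7 and Ndufa4l2 are higher in every TIC, and Ndufs8 ranges from 11.3 to 152 CPM among the TICs.

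Complex IV has several subunits with isoforms that differ between tissues, and the samples held the widespread isoforms. Cox4i1, the common form of subunit 4, had the highest level per kb of all members, 1111 CPM per kb, with 923, 745 and 803 CPM in the non-CD24+CD90+ samples and 1001, 685 and 943 CPM in TICs. Its log2 fold change was 0.09 (95% interval -0.46 to 0.64). Cox4i2, the form known from lung and from oxygen-sensing cells, was at 4.95, 0 and 0.14 CPM against 2.08, 0.81 and 1.71 CPM. Cox6a1, the non-muscle form, was at 207, 257 and 270 CPM against 291, 262 and 148 CPM, while Cox6a2 of heart and muscle had 0 counts in all 6 samples.

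The other isoform pairs had the same order. Cox7a2 was at 132, 97.2 and 115 CPM against 129, 140 and 69.9 CPM, and Cox8a at 65.6, 73.2 and 61.4 CPM against 81.0, 66.4 and 41.1 CPM. Their muscle partners Cox7a1 and Cox8b had counts in 3 samples each, with at most 12.2 and 3.83 CPM. Cox7b had a level of 695.5 CPM per kb and was at 754, 723 and 619 CPM against 811, 607 and 662 CPM, and Cox6b1 was at 148, 127 and 161 CPM against 149, 196 and 147 CPM. Cox7b2 and Cox8c, known from testis, had 0 counts in every sample, and Cox6b2, also known from testis, was at 11.5, 0 and 0 CPM against 10.2, 1.74 and 11.2 CPM. A total of 0 in a sample allows up to 3 counts, which was 0.33 to 0.44 CPM here and covers counting error only. The coding sequences of these isoforms were 51.5% to 65.1% identical and no pair shared a 50-base word.

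Cox7a2l, a relative of Cox7a2 (coding identity 48.0%) whose product takes part in joining complexes III and IV into supercomplexes, had the lowest log2 fold change of complex IV, -0.40 (95% interval -1.02 to 0.23). It was at 264, 237 and 273 CPM in the non-CD24+CD90+ samples and at 259, 198 and 131 CPM in TICs. The groups overlapped through TIC replicate 1. The highest belonged to Cox5a, 1.31 (95% interval -1.27 to 3.90), at 3.93, 3.17 and 5.70 CPM against 5.36, 3.71 and 22.7 CPM, where TIC replicate 3 alone stood apart. Without that replicate its log2 fold change was 0.11, below that of Cox5b (1.05). Cox5b, a zinc-binding subunit, was at 5.96, 8.82 and 2.28 CPM against 9.52, 13.7 and 11.6 CPM. Both belong to the same enzyme as Cox4i1 and were listed at 11.5 and 9.99 CPM per kb, far below it.

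Low levels such as these were frequent among the members that share at least 25% of their sequence with other genes. Each principal transcript was divided into all its words of 50 bases, and the share found in transcripts of other genes was counted. The authors removed reads that did not map to 1 place, so that a read from a shared stretch can be lost or counted at the other gene. Of 10 members with at least 25% of shared words, 8 were below 50 CPM per kb (Cox7c, Ndufs3, Ndufb4, Ndufb6, Cox5a, Ndufs5, Ndufa12 and Cox5b), and Uqcrb and Ndufa13 were above it. Of 26 members with a smaller share 7 were below 50 CPM per kb, and of 40 with none 15 were, mostly assembly factors and tissue isoforms. Both limits were chosen after the values were seen, and the part of shared sequence in the levels was not tested. For 7 of the 10 the gene sharing most words lay elsewhere in the genome, and for Ndufb6 (Smim27), Cox5a (Gm26631) and Ndufa13 (Tssk6) it overlapped the member on the opposite strand. Whether counting used strand is not given in the sources used here, so reads of such overlapping genes cannot be assigned with certainty.

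**Figure D4:**
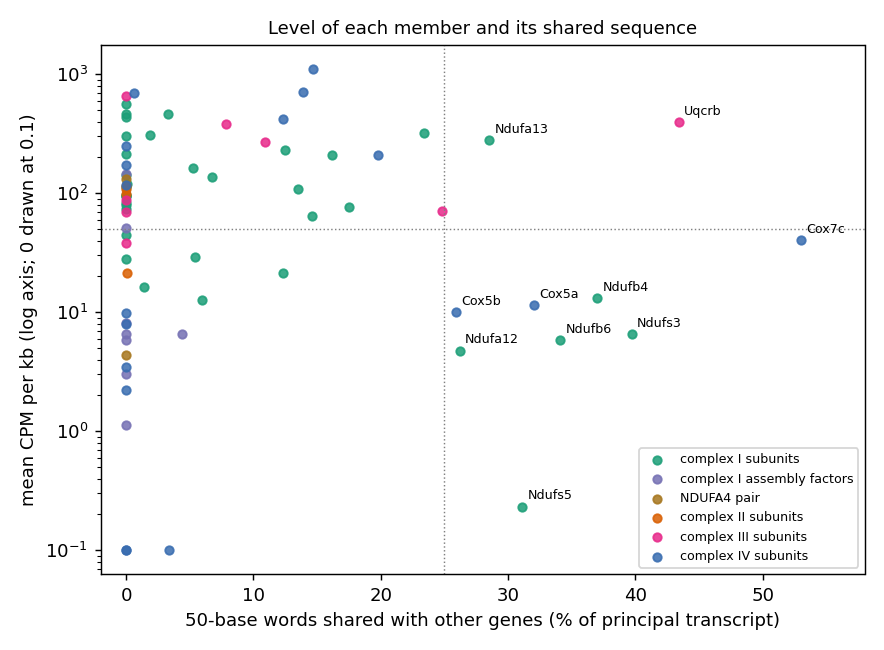
Mean level of each of the 76 members in CPM per kb (y axis, log scale, 0 drawn at 0.1) against the share of its 50-base words found in other genes (x axis, percent), coloured by complex. Dotted lines mark 25% and 50 CPM per kb, and 8 of the 10 named members to the right of 25% lie under 50 CPM per kb.

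The clearest cases were 2 complex I genes. A stretch of each is printed beside its processed pseudogene, a copy of the mRNA without introns, to show how few bases tell the aligned parts apart. Shared words made up 31.1% of the principal transcript of Ndufs5 and 26.2% of that of Ndufa12, so most words of both were not shared. Ndufs5 lies on chromosome 4 (GRCm38, chr4:123712710-123718202, minus strand), and BC002163 is a processed pseudogene on chromosome 16 (chr16:42955631-42955949, plus strand). Of 319 aligned coding bases 317 were identical. Both differences fall in the first 120 coding bases, which follow 5′ to 3′ with the differing bases in capitals.
Ndufs5: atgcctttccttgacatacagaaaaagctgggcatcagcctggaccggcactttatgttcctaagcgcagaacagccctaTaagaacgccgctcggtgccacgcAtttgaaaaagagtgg
BC002163: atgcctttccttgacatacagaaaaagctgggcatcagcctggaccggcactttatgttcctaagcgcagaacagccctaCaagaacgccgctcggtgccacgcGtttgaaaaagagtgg
Ndufa12 lies on chromosome 10 (chr10:94198720-94221443, plus strand) and its pseudogene Gm15920 on chromosome 5 (chr5:130188395-130188796, plus strand), with 400 of 402 aligned bases identical. Coding bases 37 to 156 of Ndufa12 and the matching first bases of Gm15920 hold 1 of the differences.
Ndufa12: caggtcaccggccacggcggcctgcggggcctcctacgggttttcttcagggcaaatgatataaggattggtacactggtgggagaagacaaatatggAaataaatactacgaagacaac
Gm15920: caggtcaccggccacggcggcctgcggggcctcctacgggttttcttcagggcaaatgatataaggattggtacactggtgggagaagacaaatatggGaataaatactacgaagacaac

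In the deposited counts these pairs were credited to the pseudogene. Ndufs5, whose product is an accessory subunit in the space between the membranes, had 7 counts over all 6 samples and failed the filter, while BC002163 had 413, 794 and 364 counts in the non-CD24+CD90+ samples and 623, 688 and 841 in TICs, which is 99.8% of the pair. Ndufa12 had 22, 73 and 1 counts against 48, 78 and 44, and Gm15920 had 379, 510 and 620 against 847, 408 and 249, which is 91.9% of the pair. Which of the 2 genes made these reads was not tested, nor why the unshared parts of the members added so few counts. Added to its pseudogene, Ndufs5 had a log2 fold change of 0.35 (95% interval -0.41 to 1.12), and Ndufa12 one of -0.14 (95% interval -1.0 to 0.72) in place of 0.79. Both sums had overlapping groups, and adding them was chosen after the data were seen. The counts went the same way for Ndufs3, with 322 counts against 705 at Gm12251. For Cox5b, the counts shared with Gm11273, a gene annotated as protein-coding, were mixed. Cox5b had 41, 78 and 16 counts against 87, 118 and 88, and Gm11273 had 276, 1 and 159 against 73, 77 and 4, so that Cox5b held more of the pair in every TIC and in non-CD24+CD90+ replicate 2. The log2 fold change of Gm11273 was -1.84 (adjusted p = 0.966, exactTest), opposite in sign to that of Cox5b. The counts went the other way for Cox7c, with 1042 counts against 2 at Gm10012, and for Ndufb4, with 596 against 5 at Ndufb4c. Cox7c and Ndufb4 were thus below 50 CPM per kb though these partners held few counts. Uqcrb had 10150 counts against 2184 at Gm16089, and Cox6c, with a smaller share of 13.9%, had 25251 against 4580 at Cox6c2. Without the 10 members of most shared sequence the median log2 fold change of the members was -0.01.

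**Figure D5:**
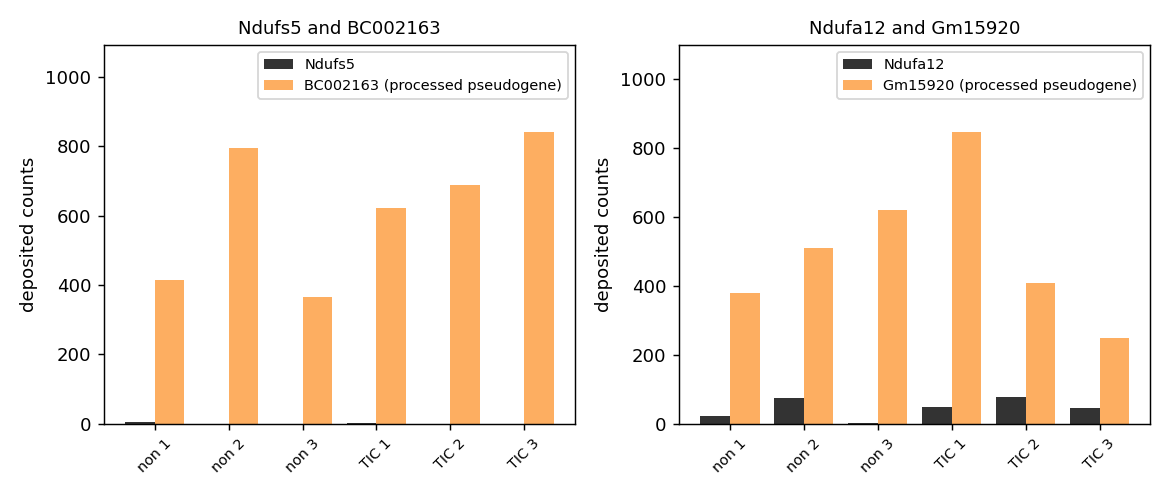
Deposited counts (y axis, starting at 0) of Ndufs5 and BC002163 (left) and of Ndufa12 and Gm15920 (right) in each sample (x axis), dark bars for the member and light bars for its processed pseudogene. The pseudogene holds most counts of both pairs in all 6 samples.

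The TIC samples differed among themselves in the level of the chain. Of the 56 members with at least 20 CPM, TIC replicate 3 was the lowest of all 6 samples for 21 (37.5%), and it was the lowest for 24.8% of all genes at that level. The median member was 0.27 lower on the log2 scale in TIC replicate 3 than in the other TICs (-0.27), while it was 0.36 higher in TIC replicate 1, and the median of all genes moved by 0.00 and 0.05. The median coefficient of variation of these members was 16.1% in non-CD24+CD90+ tumor cells and 23.5% in TICs, against 25.6% and 32.2% for all genes. The genes were not matched to the members in level, and 32 of the 56 members had a wider range of levels among TICs than in the other group. Markers moved between the same samples, with endothelial sums of 282, 435 and 1016 CPM and Fabp4 at 191, 492 and 1220 CPM in TIC replicates 1 to 3, and their part in the lower level of replicate 3 was not tested.

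Genes of related lists outside the rule did not pass the test either. Of 11 chain subunits encoded by mitochondrial DNA, 7 were tested, 0 called by exactTest and 1 had an unadjusted p below 0.05, with a median log2 fold change of 0.37, and mt-Nd3, mt-Nd4l, mt-Co2 and mt-Co3 were listed at 0 in all samples. Why these 4 had no count was not tested. The gene with the low p was mt-Nd6, at 365, 340 and 353 CPM in the non-CD24+CD90+ samples and 820, 557 and 488 CPM in TICs. Its log2 fold change was 0.82 (p = 0.0060, adjusted p = 0.227 by exactTest). The summed level of the 7 subunits with counts was 6766, 5584 and 5996 CPM in the non-CD24+CD90+ samples and 8641, 7818 and 4436 CPM in TICs, again with TIC replicate 3 lowest. Of 16 ATP synthase subunits 0 were called and 2 had an unadjusted p below 0.05, with a median of -0.28. Atp5l, a small subunit of the membrane part, had 34, 89 and 27 counts in the non-CD24+CD90+ samples and 0 in every TIC (p = 0.0022 by exactTest, adjusted p = 0.126). These counts were only 4.95, 10.1 and 3.85 CPM. Shared sequence was counted for members alone, so whether reads of Atp5l were lost or counted at another gene was not tested. The stalk subunit Atp5f1 was at 119, 154 and 176 CPM against 130, 43.5 and 69.9 CPM (adjusted p = 0.494 by exactTest). Assembly factors of complexes II to IV (22 tested, median -0.17), other complex I assembly factors (9, median 0.00), regulators of mitochondrial biogenesis (11, median -0.04) and TCA cycle enzymes (14, median 0.02) each had 0 calls by exactTest, and none of their genes had an unadjusted p below 0.05.

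The promoters of the members were read for sites of regulators of respiratory genes. RefSeq promoters of GRCm38.p6, 250 bases before to 50 after each start, were at hand for 61 of the 76 members and 27025 genes in all. They were searched on both strands for GCGCANGCG, the core site of NRF1, for CCGGAAGT, a site of the ETS factor GABPA, and for AAGATGGCG, a site of YY1, all known as regulators of respiratory genes. The NRF1 letters were in 15 member promoters (24.6%; all genes, 7.03%), those of GABPA in 4 (6.56%; 4.31%) and those of YY1 in 6 (9.84%; 1.64%). Any of the 3 was in 23 (37.7%; 11.9%), so that most member promoters held none. The genes compared were not matched to the members in level or base content. The 100 bases before the start of Sdha (GRCm38.p6, chr13:74350241-74350340, minus strand) held 3 matches to the NRF1 letters. These bases are shown 5′ to 3′ with the matches in capitals because the matches lie so close together.
Sdha: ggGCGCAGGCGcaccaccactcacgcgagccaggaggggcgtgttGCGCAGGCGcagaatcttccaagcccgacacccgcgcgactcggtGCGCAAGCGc
A match is a run of letters and not a measured binding site. Nrf1 itself was at 43.3, 49.0 and 32.6 CPM in the non-CD24+CD90+ samples and at 21.2, 25.3 and 33.2 CPM in TICs, a log2 fold change of -0.65 (adjusted p = 0.984 by exactTest) with overlapping groups. The other factors had the opposite sign. Gabpa was at 17.0, 22.4 and 38.9 CPM against 38.7, 14.6 and 31.4 CPM (log2 fold change 0.12). Yy1 was at 136.9, 198.9 and 165.1 CPM against 199.2, 233.3 and 202.8 CPM (0.34, adjusted p = 0.985 by exactTest), with the nearest samples almost equal.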

How the data were processed

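RNA-seq counts of 3 TIC and 3 non-CD24+CD90+ samples were used. According to the study's methods and the submitters' processing notes, the authors used Trimmomatic 0.32 for trimming, STAR 2.4.0 for alignment to GRCm38, SAMtools 1.1 to drop reads without a unique place and HTSeq for counting. They deposited raw counts for each Ensembl gene, without normalization. Annotation release, strand setting, read length and sequencing batch are not given in the sources used here.

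Groups came from the sample descriptions, and replicates 1 to 3 follow the sample numbers. Symbols, positions and transcripts came from GENCODE M21 on GRCm38. Of 41388 genes, 40254 matched, and the rest held 0.171% of all counts. The filter on low values was 1 CPM, exceeded in at least 3 samples. With edgeR 4.0.16 in R 4.3.3, TMM factors (0.938 to 1.047) and common and tagwise dispersions were estimated, and the groups were compared with exactTest over all 12192 genes, with Benjamini-Hochberg adjustment and a threshold of 0.1. The biological coefficient of variation was 0.823. Intervals came from the negative binomial fit with the same dispersions. The fit was also run on counts simulated with the dispersions of these data, and no result reported here rests on that run. Alignments of coding sequences were made with Biopython 1.88, in nucleotides, since reference proteins were not used here.

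The members and gene lists were chosen with earlier results of these data known. Members named were those called or with an unadjusted p below 0.05, the highest and lowest fold change and the highest mean CPM in each complex, core subunits, tissue isoforms, and members above 1 CPM with a sample at 0. Ndufa7, Ndufa10, Ndufab1, Ndufaf3, Ndufaf4, Cox6c, mt-Nd6, Atp5l, Atp5f1, Adm, Egln3, Nrf1, Gabpa, Yy1 and members with high shared sequence were named after their values were seen. A core subunit that this rule names is counted but not reported here. Alternatives were the quasi-likelihood test, DESeq2 1.42.0, RLE factors, no factors, trended dispersions, filters of 10 counts or of none, a threshold of 0.05, the NDUFA4 pair counted with complex I or IV, and each sample left out. The 95% intervals and the floor of 3 counts do not cover differences between single mice.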

Additional observations from a re-analysis of the deposited data

How the results depend on the processing

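No member was called under any alternative but for Ndufs8 without TIC replicate 1 (0 to 1 members called when single samples were left out), and 0 to 4 members then had an unadjusted p below 0.05. The number of all genes called, 189, was 116 at an adjusted p below 0.05, 50 with the quasi-likelihood test, 306 with DESeq2, 112 with no filter beyond 1 count and 72 to 323 with 1 sample left out. The median of the NDUFA4 pair was 0.22 with at least 10 counts in every sample, since Ndufa4l2 then dropped out, and 0.65 to 1.29 with 1 sample left out.

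For 33 named members, 375 of 422 values kept their sign and their side of the threshold, 46 changed sign and 1 was newly called. Of these members 19 changed sign under some alternative, and Ndufs8, called without TIC replicate 1, is among them. None of the 33 was called in the main fit. With DESeq2, RLE factors and the filter of 10 counts, log2 fold changes became 0.0019, 0.0019 and 0.014 for Cox7a2, 0.017, 0.017 and 0.029 for Cox7b (0.0026 without filter), 0.014, 0.014 and 0.024 for Sdhc and 0.014, 0.014 and 0.025 for Uqcr10. That of Ndufaf1 was -0.013 with library size alone and that of Ndufa12 was -0.14 with the counts of its pseudogene added, an alternative chosen after seeing the data, as was leaving out members with much shared sequence. Scaling by library size alone moved the median of all genes to -0.06. With 1 sample left out, log2 fold changes that changed sign lay between -0.0013 and 0.24 for Cox4i1, -0.72 and 0.17 for Cox4i2, -0.24 and 0.20 for Cox6a1, -0.20 and 0.25 for Cox7a2, -0.12 and 0.0798 for Cox7b, -0.29 and 0.16 for Cox8a, -0.46 and 0.017 for Ndufa13, -0.0545 and 0.57 for Ndufa4, -5.39 and 0.60 for Ndufaf1, -0.43 and 0.10 for Ndufaf8, -0.21 and 0.56 for Ndufs1, -1.77 and 0.22 for Ndufs8, -0.0774 and 0.53 for Ndufv1, -0.26 and 0.46 for Ndufv2, -0.19 and 0.22 for Sdhc, -0.10 and 0.14 for Uqcr10, -0.0252 and 0.50 for Uqcr11 and -0.17 and 0.0764 for Uqcrc1. The cause of these shifts was not tested. No paired analysis was run, because the labels number the samples from 1 to 6 and the groups share no replicate number. The labels do not say whether TIC and non-CD24+CD90+ samples came from the same mice, and every fit treated the samples as independent.

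None of the 13 members tested below 20 CPM had a 95% interval within 2-fold. The parts of depth, of the spread between samples and of the dispersion shared between genes in this were not tested.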
